A study of Saccharomyces cerevisiae with 9 samples.

Results

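The comparison was between yeast lacking PAH1 and wild-type yeast. It used 6 of the 9 RNA-seq libraries of the study, 3 of pah1Δ and 3 of WT, and 6150 of the 7122 genes in the deposited count table passed the expression filter and were tested. All strains were Saccharomyces cerevisiae of the prototrophic CEN.P.K background, which makes its own amino acids and nucleobases. The pah1Δ strain carried a deletion of PAH1 and the WT strain carried no deletion; the remaining 3 libraries, of a dgk1Δ strain, entered the model but not the contrast. Cells were grown in minimal synthetic medium with 2% glucose, regrown to log phase, washed and frozen. Poly(A) RNA was fragmented and copied with random primers, with no strand-marking step named, so reads from a gene cannot be separated from those of an overlapping or antisense partner, and overlaps are marked below. The labels do not say that replicates were separate cultures or that more than 1 clone was used, so the p-values measure the spread between these libraries, which may be technical.

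Pah1 is the yeast lipin, a phosphatase that removes the phosphate of phosphatidate to give diacylglycerol, the precursor of storage fat. Phosphatidate is also the entry to membrane phospholipids, and it holds the repressor Opi1 at the endoplasmic reticulum, away from the promoters that Ino2 and Ino4 activate. Cells without Pah1 are known for an enlarged nuclear and endoplasmic reticulum membrane, few lipid droplets and slow growth.

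Levels are given as CPM, a gene's share of the scaled library total. The 6 libraries held 9205454 to 12616347 counts over genes. PAH1 had 494, 535 and 454 counts in WT replicates 1, 2 and 3 and 0 counts in each pah1Δ library. Its level of 49.1 ± 6.75 CPM (SD, n = 3) in WT was at least 173-fold above the floor of 0.283 CPM that 3 counts per pah1Δ library would give. The flanking genes MSS11 (log2 fold change 0.04) and YMR166C (-0.12) were not called, nor was DGK1, which encodes the opposing diacylglycerol kinase (-0.13, SE 0.0813, edgeR adjusted p = 0.257).

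WT replicate 1 and pah1Δ replicate 2 stood apart from their groups in a way that followed gene length. In a principal component analysis the first component (65.5% of variance) separated the genotypes, and the second (27.1%) separated these libraries from the other 4. Each library's log2 deviation was taken from the mean of the other libraries of its group. Across 5299 genes, this deviation fell with gene length in both (Spearman correlation -0.746 in WT replicate 1 and -0.682 in pah1Δ replicate 2). In the other 4 it rose (0.33 to 0.693). The mean used for each of those 4 includes WT replicate 1 or pah1Δ replicate 2, so their rise is not a separate trend. Genes are not independent replicates, so these correlations describe the libraries. From the shortest to the longest of 5 equal bins of genes, the median log2 ratio to the WT mean ran from 0.24 to -0.24 in WT replicate 1 and from 0.10 to -0.20 in pah1Δ replicate 2. The calls, lists and annotation terms below were recomputed without both libraries and with the length trend removed.

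Relative to WT, 1023 genes were higher in pah1Δ (16.6% of those tested) and 775 were lower (12.6%) by edgeR's quasi-likelihood test at a Benjamini-Hochberg adjusted p under 0.05. The rises were larger than the falls: 259 of the rises but 25 of the falls were at least 2-fold, and 37 and 5 were at least 4-fold. The genes that fell were more abundant in WT, with a median of 206.8 CPM against 37.1 CPM for the genes that rose and 61.3 CPM for all tested genes. The median log2 fold change was 0.61 among the rises and -0.40 among the falls, beside 0.00 over all tested genes. The 3 pah1Δ libraries lay wholly above the 3 WT libraries for 1352 of the 6150 tested genes and wholly below for 1071, which includes 1011 of the rises and 747 of the falls; genes called on the same libraries nearly always separate, so this adds no support. With library size alone as the scale, the median of all genes moved to 0.09 and the calls to 1343 higher and 480 lower. Leaving out WT replicate 1 raised the number lower to 1172, and leaving out pah1Δ replicate 1 reduced it to 447. Without both WT replicate 1 and pah1Δ replicate 2, 983 of the rises and 751 of the falls were still called. With the length trend removed, 1015 and 761 were still called. Both fits also called further genes. Their totals were 1376 higher and 1316 lower without both libraries, and 1403 higher and 1148 lower with the trend removed. No called gene changed sign in either fit (0 genes).

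**Figure D1:**
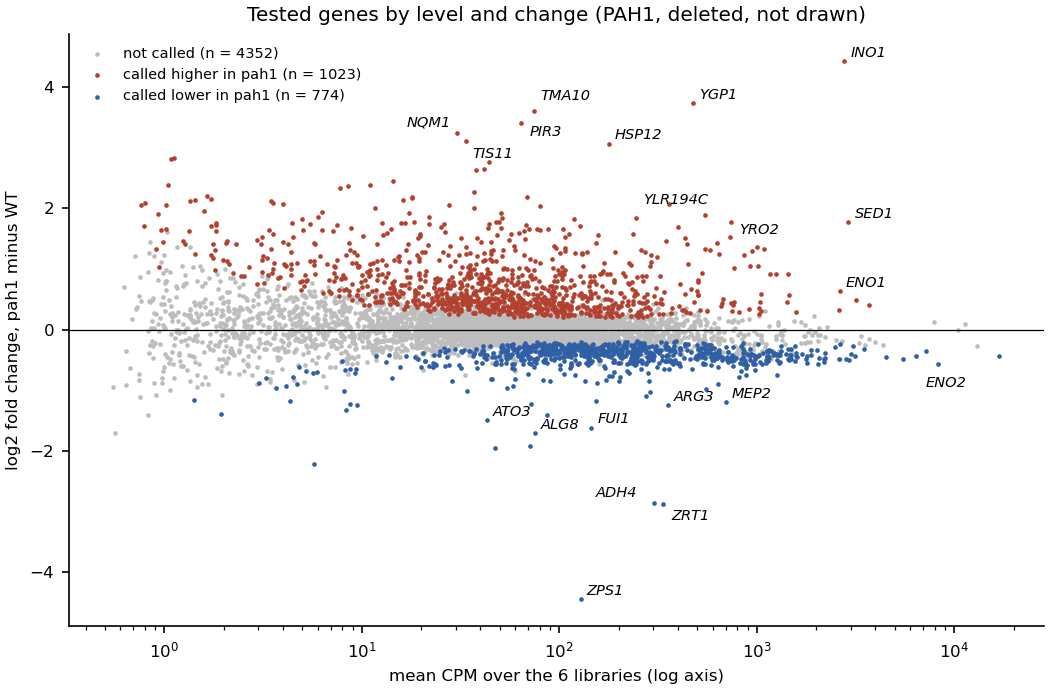
Each point is 1 tested gene, placed by its mean CPM over the 6 libraries (log axis) and its log2 fold change, pah1 minus WT; red genes were called higher and blue genes lower, and PAH1 itself is not drawn. The large rises lie mostly at middle levels, while many of the falls lie at high levels and are small.

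Sums over the called genes depended on the scale. The 1023 genes called higher held 93995 to 96077 CPM in WT and 155091 to 160708 CPM in pah1Δ. The 775 called lower held 355229 to 410330 CPM in WT, the highest in WT replicate 1, and 274517 to 281687 CPM in pah1Δ. The mean summed change was 62550 CPM for the rises and -98790 CPM for the falls, but the scaled totals of all tested genes also differed, with means of 1027054 CPM in WT and 965183 CPM in pah1Δ. As a share of each library's own total, which no scaling changes, the genes called higher held 8.94% to 9.44% in WT and 16.2% to 16.5% in pah1Δ, and the genes called lower held 35.6% to 38.2% and 28.5% to 29.2%. The 10 largest gains made up 25.2% of the summed gain, and the 10 largest losses 19.1% of the summed loss. These sums cover genes chosen by their calls and are a description only.

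Promoter stretches of 7 genes that have both large changes and matches are shown first, as examples of the motifs searched. Other genes with large changes, among them YGP1, TMA10, PIR3, HXK1 and ZPS1, had no match to any motif searched in the 250 bases before their start. Each line gives 150 bases of the coding strand, from 250 to 101 bases before the annotated gene start, in the RefSeq R64 assembly. Capitals mark matches to the stress response element AGGGG of Msn2 and Msn4 (HSP12, DDR2, NQM1 and HSP42), the CATGTGAA element of Ino2 and Ino4 (INO1), the TGCACCC element of the iron regulator Aft1 (TIS11), the Hsf1 motif (HSP42) and the GATGAG (PAC) and AAAATTTT (core RRPE) elements found before ribosome biogenesis genes (DBP2), on either strand. The stretches lie at chrX:136034-136183 (INO1, minus strand), chrXII:416759-416908 (TIS11, minus), chrVI:107006-107155 (HSP12, plus), chrXV:231856-232005 (DDR2, minus), chrVII:581537-581686 (NQM1, minus), chrIV:806371-806520 (HSP42, plus) and chrXIV:413389-413538 (DBP2, plus).
INO1: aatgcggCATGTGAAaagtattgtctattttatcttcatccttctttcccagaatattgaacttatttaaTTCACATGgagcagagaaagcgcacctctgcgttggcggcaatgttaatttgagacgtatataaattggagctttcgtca
TIS11: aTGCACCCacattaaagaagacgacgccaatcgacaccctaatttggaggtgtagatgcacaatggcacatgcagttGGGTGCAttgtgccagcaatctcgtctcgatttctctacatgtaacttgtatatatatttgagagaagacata
HSP12: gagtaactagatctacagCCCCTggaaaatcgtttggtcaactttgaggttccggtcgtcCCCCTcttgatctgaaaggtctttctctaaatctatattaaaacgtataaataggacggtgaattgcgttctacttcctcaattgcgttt
DDR2: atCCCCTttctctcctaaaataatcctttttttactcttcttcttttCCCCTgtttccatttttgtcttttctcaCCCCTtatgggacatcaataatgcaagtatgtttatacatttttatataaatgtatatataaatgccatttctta
NQM1: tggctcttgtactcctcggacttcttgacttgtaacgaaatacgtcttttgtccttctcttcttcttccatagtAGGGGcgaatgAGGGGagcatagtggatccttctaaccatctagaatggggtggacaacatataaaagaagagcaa
HSP42: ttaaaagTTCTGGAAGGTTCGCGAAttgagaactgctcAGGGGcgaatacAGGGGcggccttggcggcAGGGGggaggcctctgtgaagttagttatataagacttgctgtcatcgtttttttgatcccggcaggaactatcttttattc
DBP2: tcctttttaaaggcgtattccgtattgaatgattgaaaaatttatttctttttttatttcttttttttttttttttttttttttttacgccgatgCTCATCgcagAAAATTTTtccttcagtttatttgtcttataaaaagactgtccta

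INO1, HSP12, DDR2, NQM1, TIS11 and HSP42 all rose and DBP2 fell, with values given below. Over 5671 tested genes with a usable 250-base window, AGGGG occurred in 19.2% of promoters, in 36.2% of the 991 called higher and in 11.3% of the 753 called lower. Among the genes that rose at least 2-fold the share was 44.8% of 241, and among those that rose at least 4-fold it was 50% of 32. With a 150-base window these shares were 23.7% and 18.8%, beside 21.8% of all genes called higher, so no climb with the size of the rise was seen there. GATGAG was in 16.5% of all promoters, 11.3% of those called higher and 35.2% of those called lower. AAAATTTT occurred in 8.87% of all promoters, 3.33% of those called higher and 29.7% of those called lower. Neither was frequent before the 22 genes that fell at least 2-fold, where GATGAG occurred in 9.09%, AAAATTTT in 4.55% and AGGGG in 13.6%. With a 150-base window the shares for AGGGG were 11.2% of all, 21.8% of the higher and 5.98% of the lower genes, and those for GATGAG were 10%, 6.16% and 26.7%. Counting only promoters with at least 2 matches gave 2.29%, 6.16% and 1.06% for AGGGG and 2.49%, 0.202% and 10.1% for GATGAG. A match is a run of letters and does not show that the factor binds.

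**Figure D2:**
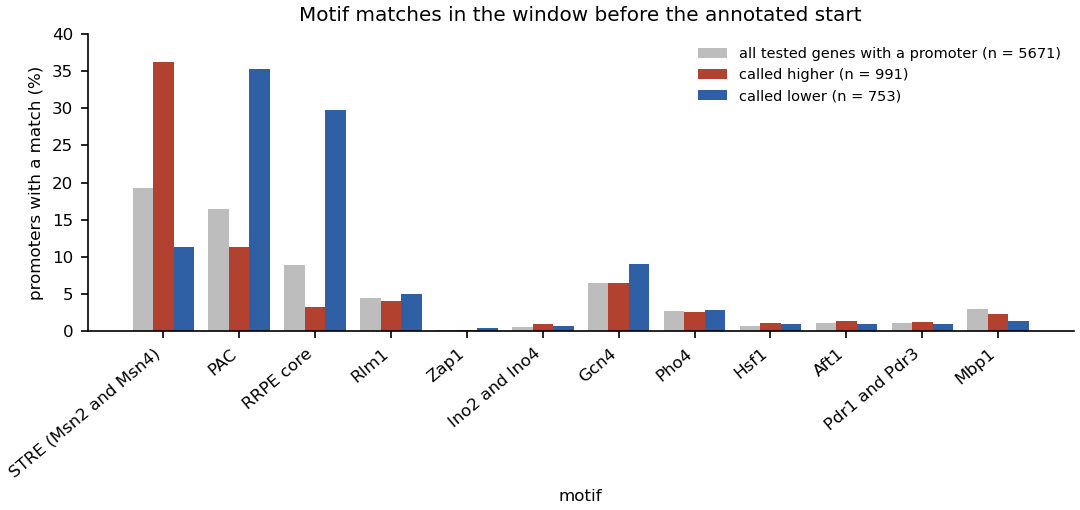
Bars give the percent of promoters with at least 1 match to each of 12 motifs, on either strand, in the 250 bases before the annotated start; grey bars are all tested genes with a promoter, red those called higher and blue those called lower. The stress element stands out among genes called higher (36.2%), and PAC (35.2%) and the RRPE core (29.7%) among genes called lower.

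The other 9 motifs differed by fewer percentage points, though not always by less in proportion, as for Mbp1 and Zap1 among genes called lower. Zap1 matched only 9 promoters, 3 of them of genes called lower. The Gcn4 motif TGACTC was in 6.49% of all promoters, 6.56% of the higher and 9.03% of the lower genes. For the Rlm1 motif these shares were 4.53%, 4.14% and 5.05%, for the Mbp1 motif ACGCGT 3.02%, 2.32% and 1.33%, and for the Pho4 motif CACGTG 2.73%, 2.62% and 2.92%. For the Aft1 motif they were 1.13%, 1.41% and 0.93%, for the Pdr1 and Pdr3 motif CCGCGG 1.06%, 1.21% and 0.93%, and for Hsf1 0.758%, 1.11% and 0.93%. The Ino2 and Ino4 motif was in 0.617%, 1.01% and 0.664%, and the Zap1 motif in 0.159%, 0.202% and 0.398%. Rules for such motifs differ between factors in length and so in how often they match by letters alone.

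INO1, the gene for the enzyme by which yeast makes its own inositol, had the largest rise and has 2 matches to the Ino2 and Ino4 element in the stretch shown above. It had 172, 229.8 and 335.9 CPM in WT replicates 1, 2 and 3 and 5322, 5119 and 5439 CPM in pah1Δ. WT replicate 3 was the highest of the WT libraries, the pah1Δ libraries lay close together, and the groups did not overlap. By edgeR the log2 fold change was 4.43 with an SE of 0.477 (adjusted p = 6.8e-05). Its mean gain was the largest of all genes called. The inositol transporter gene ITR1 was also among the largest gains, with 2457, 2521 and 2967 CPM in WT and 3748, 3474 and 3854 CPM in pah1Δ (a log2 change of 0.48, SE 0.143, edgeR adjusted p = 0.028). ITR1 was not called without WT replicate 2, without pah1Δ replicate 1 or 3, or without both libraries that stood apart.

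YGP1, a secreted glycoprotein induced when nutrients run low, had 64.8, 66 and 69.2 CPM in WT and 762.3, 828.9 and 1076 CPM in pah1Δ (a log2 change of 3.74, SE 0.13, edgeR adjusted p = 1.29e-07). PIR3, a covalently bound wall protein, had 12.2, 10.7 and 10.4 CPM in WT and 104.6, 112.9 and 134.8 CPM in pah1Δ. SED1, the main wall glycoprotein of stationary cells, had 1153, 1478 and 1329 CPM in WT and 4403, 3660 and 5490 CPM in pah1Δ, the second-largest gain in CPM. For none of these genes did the groups overlap. Other wall genes rose as well: CRH1, which joins chitin to glucan, by 1.36, HSP150 by 0.92, the wall constituent YLR194C by 1.90 and the yapsin protease gene YPS3 by 1.83 (overlapping YLR120W-A). GAS3, a putative glucan-remodelling enzyme, fell by 0.83 and WSC4 fell by 1.40.

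TMA10, which associates with ribosomes and has no described function, had 14.1, 10.7 and 9 CPM in WT and 124.9, 147.3 and 143.5 CPM in pah1Δ. HSP12, a membrane-stabilising hydrophilin with 2 stress elements in the stretch above, had 59.5, 28.9 and 24.8 CPM in WT and 276.6, 430.2 and 248.4 CPM in pah1Δ. DDR2, with 3 such elements, had 15.5, 8.93 and 9.33 CPM in WT and 72.1, 91.7 and 68 CPM in pah1Δ. HSP12 and DDR2 were highest within each group in WT replicate 1 and pah1Δ replicate 2, the libraries in which short genes ran high, and the groups still did not overlap. HSP42, a small heat shock protein, was even within groups, with 31.6, 32.9 and 29.3 CPM in WT and 126.2, 130.7 and 130.1 CPM in pah1Δ (a log2 change of 2.04, SE 0.0783, edgeR adjusted p = 1.54e-07). HSP26 rose by 1.82.

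**Figure D3:**
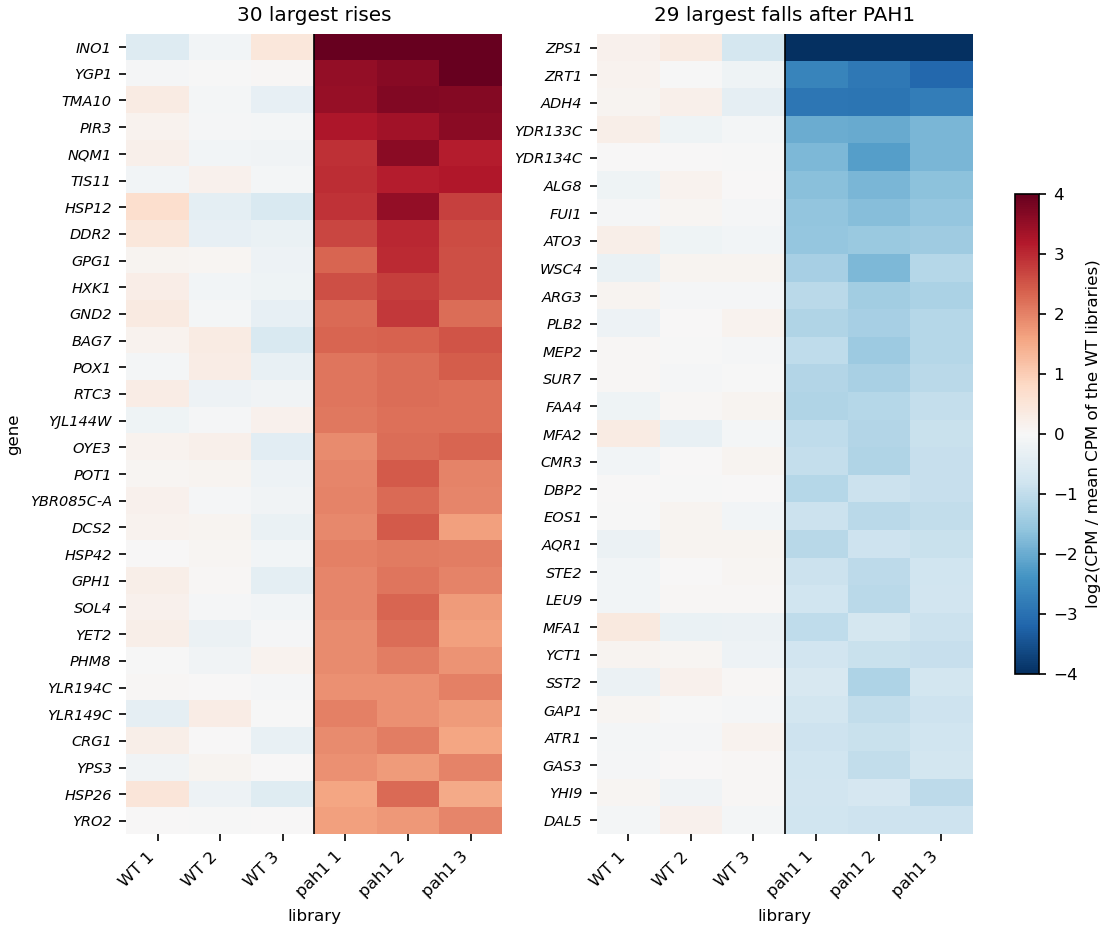
Rows are the 30 largest rises (left) and the 29 largest falls after PAH1 (right), columns are the 6 libraries, and colour is log2 of CPM over the mean of the WT libraries. The WT columns are pale and the 3 pah1 columns are coloured alike in every row, with WT replicate 1 and pah1 replicate 2 slightly redder for short genes such as HSP12, DDR2 and HSP26.

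NQM1, a transaldolase paralog, had 6.64, 5.4 and 5.27 CPM in WT and 43.5, 70.2 and 51.3 CPM in pah1Δ. GND2, the minor 6-phosphogluconate dehydrogenase, rose by 2.44 and SOL4, a 6-phosphogluconolactonase, by 2.00. The hexokinase gene HXK1, which overlaps YFR052C-A, rose by 2.63 and the glucokinase gene GLK1, which overlaps YCL042W, by 1.70. Glycolysis split by isozyme: ENO1 rose by 0.63 and TDH1 by 1.32, while ENO2 fell by 0.57 and TDH2 by 0.48 (TDH2 and TDH3 are near-identical and can share reads). TDH3, the gene with the largest loss in CPM, had 24587, 16503 and 17310 CPM in WT and 14679, 14039 and 14704 CPM in pah1Δ (edgeR adjusted p = 0.0471). TDH3 stood highest in WT replicate 1, and it was called in 9 of the 19 alternative fits.

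Other large rises had varied roles. TIS11, which binds mRNAs of iron-using proteins for decay and has 2 Aft1 matches in the stretch above, had 6.56, 7.99 and 6.69 CPM in WT and 55.4, 62.1 and 65.1 CPM in pah1Δ. GPG1, a proposed G protein subunit, rose by 2.64, BAG7, a GTPase-activating protein of Rho1, by 2.39, and the flavin oxidoreductase gene OYE3 by 2.16. The peroxisomal genes POX1 and POT1, for acyl-CoA oxidase and thiolase, rose by 2.26 and 2.13. PHM8, a lysophosphatidate phosphatase, rose by 1.92, and CRG1, a methyltransferase of lipid homeostasis, by 1.84. DCS2, a regulator of cap hydrolysis, rose by 2.04. BNA2, the first enzyme of NAD synthesis from tryptophan, rose by 1.77 (overlapping YJR079W), and SRL3 rose by 1.78.

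Of 1544 tested genes for which the deposited table gave no symbol or no function, 287 were higher (18.6%, near the 16.6% of all tested genes) and 92 were lower (5.96%, beside 12.6%). The largest rises among them after TMA10, NQM1 and RTC3 (2.18) were YJL144W, a desiccation-related hydrophilin (2.18), YBR085C-A (2.07), YET2 (1.92), YLR194C, YLR149C (1.86), YRO2 (1.78) and LEE1 (1.77). YBR085C-A had 156.9, 133.4 and 124.4 CPM in WT and 551.9, 661 and 531.2 CPM in pah1Δ. YRO2, related to microbial rhodopsins, had 341, 327.7 and 334.9 CPM in WT and 1034, 1110 and 1297 CPM in pah1Δ. YMR122W-A, known only by its systematic name, rose by 0.91 and was among the 12 largest gains in CPM. Falls in this class were YHI9 (-0.83), YBR238C (-0.81), YJR071W (-0.80, overlapping LIA1) and the overlapping pair YDR133C (-1.94) and YDR134C (-1.92), of which YDR134C is a paralog of the wall gene CCW12. YDR134C had 114.2, 113.4 and 110.5 CPM in WT and 32.3, 24.7 and 32.1 CPM in pah1Δ.

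The largest falls after PAH1 among genes averaging 10 CPM or more were ZPS1, ZRT1 and ADH4. ZPS1, a surface protein induced by low zinc, had 277.4, 307.1 and 152.3 CPM in WT and 11.5, 10.1 and 12.3 CPM in pah1Δ (a log2 change of -4.44, SE 0.525, edgeR adjusted p = 0.000129). The high-affinity zinc transporter gene ZRT1 had 655.5, 587.3 and 528.7 CPM in WT and 93.8, 81.4 and 67.2 CPM in pah1Δ. ADH4, an alcohol dehydrogenase, had 570.2, 615.3 and 413.6 CPM in WT and 71.9, 71 and 78.1 CPM in pah1Δ. WT replicate 3 was lowest of the WT libraries for all 3 genes, and no WT library reached down to the pah1Δ level.

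FUI1, the uridine permease, had 213.5, 231.5 and 210.9 CPM in WT and 73.2, 66.7 and 74.1 CPM in pah1Δ. The ammonium permease MEP2 fell from 1008, 956.8 and 948.9 CPM to 476.5, 356.4 and 436.6 CPM. The putative ammonium exporter ATO3 fell by 1.49, the general amino acid permease GAP1 by 0.85, the allantoate permease DAL5 by 0.82, the cysteine transporter YCT1 by 0.85, and the efflux pumps AQR1 and ATR1 by 0.94 and 0.84. SUR7, a protein of the membrane furrows called eisosomes, fell by 1.18. Lipid genes among the falls were the acyl-CoA synthetase gene FAA4 (-1.10) and the phospholipase B gene PLB2 (-1.22). ALG8, which adds glucose to the lipid-linked glycan, had 102.4, 127.4 and 115.7 CPM in WT and 35.8, 32.7 and 37.3 CPM in pah1Δ. EOS1, also of N-glycosylation, fell by 0.97 and the putative zinc finger gene CMR3 by 1.01. ARG3, ornithine carbamoyltransferase, fell by 1.25 and LEU9, isopropylmalate synthase, by 0.88 (overlapping YOR108C-A). DBP2, an RNA helicase whose promoter is shown above, had 736.7, 727.8 and 744.5 CPM in WT and 334.4, 403.5 and 388.8 CPM in pah1Δ.

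Genes of a-cell identity also fell. The a-factor genes MFA2 and MFA1 fell by 1.03 and 0.85 and the alpha-factor receptor STE2 by 0.89. SST2, which shuts off the receptor's signal and is not one of the a-specific markers, fell by 0.85. Of 7 MATa-specific markers, 6 were lower and 0 higher, with a median of -0.72, and their summed level was 2025 to 2083 CPM in WT and 1073 to 1258 CPM in pah1Δ. Of 4 MATalpha-specific markers, 2 were higher and 0 lower (STE3, overlapping YKL177W, and MF(ALPHA)1), with a median of 0.89, but their summed level stayed at 43.3 to 54.6 CPM in WT and 65.1 to 74.2 CPM in pah1Δ. Of 6 haploid-specific markers, 3 were lower (median -0.24), among them STE4 (-0.50), the G protein beta subunit. Both strains thus expressed the a-specific set far above the alpha-specific set. Whether fewer cells expressed these genes or each cell held less of their RNA cannot be told apart in bulk samples.

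The 20 largest losses in CPM made up 26.4% of the summed loss. The translation factor gene YEF3 had 7929, 8118 and 8178 CPM in WT and 6235, 6099 and 6717 CPM in pah1Δ (edgeR adjusted p = 0.0106), and it was not called without pah1Δ replicate 1. ADH1 fell by 0.43 and was not called without WT replicate 3 or without any 1 of the pah1Δ libraries. The ribosomal protein genes RPL3, RPL5, RPS2 (overlapping YGL123C-A) and RPS20 fell by 0.46 to 0.53, and they were called in all 19 alternative fits. ILV5, a branched-chain amino acid enzyme, had 3545, 3350 and 3390 CPM in WT and 2422, 2243 and 2584 CPM in pah1Δ. GLN1, glutamine synthetase, fell by 0.39. SAM2, which makes S-adenosylmethionine, ran the other way with a rise of 0.41 and lost its call without WT replicate 2 or without any 1 of the pah1Δ libraries.

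Grouping genes by the pathway column of the table, which names KEGG pathways, gave 95 pathways with at least 10 tested genes, 53 with a median above 0 and 42 below. The share of members called higher was above the 16.6% of all tested genes in 52 of them and the share called lower above 12.6% in 48. The highest medians belonged to small carbon pathways. In beta-alanine metabolism 10 of 12 genes were higher and 1 lower (median 0.72, and 0.70 to 0.81 over the alternatives). Its members include POX1, the glutamate decarboxylase GAD1 (1.27), the polyamine oxidase FMS1 (0.81) and the aldehyde dehydrogenase HFD1 (0.63), and a gene can belong to several pathways. In starch and sucrose metabolism 24 of 43 were higher and 2 lower (median 0.45). In fructose and mannose metabolism 13 of 25 were higher and 2 lower (median 0.54, but 0.15 to 0.66 over the alternatives). Of the 13, YFR052C-A and YCL042W overlap HXK1 and GLK1 and can take their reads. The summed level of this pathway did not rise: in pah1Δ it was 0.86 of that in WT, beside 0.94 over all tested genes. Butanoate metabolism (8 higher and 1 lower of 14, median 0.43) was led by GAD1 and UGA2 (1.10), of the route from glutamate through GABA to succinate. Pentose and glucuronate interconversion had 6 higher and 1 lower of 10 (median 0.43, 0.05 to 0.52 over the alternatives), with the aldose reductase GRE3 at 1.28 and the sorbitol dehydrogenase genes SOR2 and SOR1 at 1.76 and 0.98. SOR1 and SOR2 are near-identical, can share reads and had means of 1.23 and 0.848 CPM in WT. Valine, leucine and isoleucine degradation had 7 higher and 1 lower of 12 (median 0.40), and propanoate metabolism 8 higher and 0 lower of 17 (median 0.34), with ARI1 at 1.09 and GRE2 at 1.05 (overlapping YOL150C). Vitamin B6 metabolism had 4 higher and 2 lower of 12 (median 0.39), where SNZ1 rose by 0.98 and SER1 fell by 0.33. Its summed level in pah1Δ was 0.935 of that in WT, near the 0.94 over all tested genes.

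The lowest pathway medians belonged to protein synthesis and amino acid synthesis. In the ribosome pathway 101 of 184 genes were lower and 0 higher (median -0.42, and -0.50 to -0.26 over the alternatives). Without both libraries that stood apart 145 were lower, but the median was nearer to no change, at -0.34. Its members were short, with a median of 438 bases beside 1146 for all tested genes, and are thus exposed to the length trend. Their summed level was 199477, 144942 and 153419 CPM in WT replicates 1, 2 and 3 and 117834, 135766 and 113965 CPM in pah1Δ. RPL18B fell by 0.77, RPL9A by 0.76 and YLL044W, an overlapping dubious frame, by 0.54. In lysine biosynthesis 9 of 12 were lower and 0 higher (median -0.41), where HOM2 fell by 0.41 and LYS12 by 0.40. Ribosome biogenesis had 38 lower and 1 higher of 78 (median -0.29). Its 1 rise was GSP2 (1.13), a Ran GTPase whose fellow members UTP8 (-0.44) and NOP1 (-0.50) fell. RNA polymerase had 14 lower and 0 higher of 33 (median -0.28). Aminoacyl-tRNA biosynthesis had 16 lower and 1 higher of 43 (median -0.23), and the rise was GRS2 (0.46), a little-used glycyl-tRNA synthetase. Valine, leucine and isoleucine biosynthesis (4 lower, 1 higher of 13), 2-oxocarboxylic acid metabolism (15 lower, 5 higher of 39) and arginine biosynthesis (7 lower, 1 higher of 19) each had a median of -0.24. In the last, ARG3 (-1.25) and ARG8 (-0.77) for synthesis fell while CAR1 (0.97), arginase, rose.

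The Gene Ontology columns covered fewer genes. Among 41 molecular functions with 10 to 200 tested genes, substrate-specific transmembrane transporter activity had the highest median (8 higher, 0 lower of 12, median 0.48). Its members include the sugar transporter genes HXT5 (1.68), MAL31 (0.77) and YBR241C (0.78). Flavin adenine dinucleotide binding had 7 higher and 1 lower of 11 (median 0.43), with the external NADH dehydrogenase NDE2 at 1.43. Oxidoreductase activity had 23 higher and 4 lower of 47 (median 0.33), led by GCY1 (1.56, overlapping YOR121C), GRE3 and YDL124W (1.43). ATP-dependent helicase activity had 12 lower and 0 higher of 22 (median -0.28), with DBP3 (-0.42), HAS1 (-0.48, overlapping YMR290W-A) and DBP9 (-0.40), and RNA binding had 25 lower and 0 higher of 64 (median -0.23), led by PUF6 (-0.52). Among 36 biological processes, carbohydrate metabolism (9 higher, 3 lower of 21) and the tricarboxylic acid cycle (10 higher, 3 lower of 18) had the highest medians, both 0.28. In the latter IDP2 (1.22) and SDH2 (0.55) rose, and the lowest member stood at -0.70. The summed level of the cycle in pah1Δ was 0.945 of that in WT, near the 0.94 over all tested genes. Protein phosphorylation had 13 higher and 2 lower of 60 (median 0.12, 0.01 to 0.22 over the alternatives), with rises in the kinase genes SKM1 (0.85), YPK2 (1.31) and KDX1. KDX1, a kinase-like gene of the cell wall pathway, had 32.9, 34.9 and 37.3 CPM in WT and 103.5, 94.6 and 98.1 CPM in pah1Δ. Translation (40 lower of 82, median -0.40) and rRNA processing (11 lower of 14, median -0.34) were among the lowest. Among 13 cellular components, the range ran from 0.14 for the endoplasmic reticulum (3 higher, 1 lower of 10) to -0.40 for the ribosome (29 lower of 62).

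Many of the other ontology terms at the ends of the ranking held smaller medians or few calls. Exceptions included nucleolus, given below, and the large ribosomal subunit (6 lower of 11, median -0.39). Others were the processes ribosome biogenesis (7 lower of 13, median -0.38) and translational initiation (5 lower of 12, median -0.32). Structural constituent of ribosome (39 lower, 0 higher of 80) had the lowest median of the molecular functions, -0.40. Translation initiation factor activity had 5 lower of 11 (median -0.30). DNA-directed RNA polymerase activity had 7 lower of 17 and DNA-templated transcription 7 lower of 19, both with a median of -0.27. Cell redox homeostasis had 3 higher of 10 (median 0.25), and 8 without both libraries that stood apart. Response to stress had 4 higher and 2 lower of 13 (median 0.23, 0.03 to 0.32 over the alternatives), with HSP82 at 1.41 and the wall protein TIR3 at -0.70. DNA repair had 4 higher of 22 (median 0.11), close to the share over all tested genes. Glycolysis had 5 higher and 2 lower of 15 (median -0.21, -0.23 to -0.06 over the alternatives). Membrane had 16 higher and 11 lower of 83 (median 0.04), also close to the shares over all tested genes, nucleus 3 higher and 29 lower of 150 (median -0.09), and nucleolus 6 lower of 11 (median -0.34). Electron carrier activity had 4 higher and 1 lower of 13 (median 0.22), and methyltransferase activity 3 higher and 6 lower of 16 (median -0.15).

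Without both libraries that stood apart, more members of many terms were called. That held over all genes too, with 1376 of 6150 higher and 1316 lower. The counts here are to be read beside those totals rather than the shares of the full fit. Nucleus had 14 higher and 54 lower, nucleolus 10 lower, translation 56 lower, ATP-dependent helicase activity 19 lower and 1 higher, and RNA binding 34 lower and 2 higher. Protein phosphorylation had 15 higher and 9 lower, glycolysis 6 and 4 (median -0.13), methyltransferase activity 5 and 8, electron carrier activity 8 and 1 (median 0.36) and the endoplasmic reticulum 5 and 1 (median 0.29). Propanoate metabolism had 11 higher and 2 lower, butanoate metabolism 8 and 2, and valine, leucine and isoleucine degradation 8 and 2. Arginine biosynthesis and aminoacyl-tRNA biosynthesis each had 2 higher. The carbohydrate process median was 0.19. The medians of translation and of the ribosome component shrank from -0.40 to -0.31.

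Textbook gene lists gave a finer view, read against the shares of 16.6% higher and 12.6% lower over all tested genes. Stores of carbohydrate came first. Of 7 trehalose genes 6 were higher and 0 lower (median 0.78). TSL1, a subunit of the synthase complex, had 16.4, 23.4 and 21.4 CPM in WT and 76.9, 60.3 and 66.7 CPM in pah1Δ, and both the synthase TPS1 (0.92) and the degrading trehalase NTH1 (0.96) rose. Of 11 glycogen genes 7 were higher and 0 lower (median 0.45), again on both sides: the phosphorylase GPH1 (2.01, overlapping YPR160C-A and YPR160W-A), the debranching enzyme GDB1 (0.99) and the synthase GSY2 (0.79). Of 16 hexose transport genes 6 were higher and 1 lower (median 0.34), led by HXT5, which had 11.3, 13 and 11.9 CPM in WT and 38.7, 39.3 and 38.2 CPM in pah1Δ. HXT1 rose by 0.44, and HXT9 and HXT11 (1.07 and 1.05) are near-identical to each other and to HXT12 and can share reads. The 1 fall was the sensor regulator STD1 (-0.26), which was not called when any 1 library other than WT replicate 1 was left out.

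**Figure D4:**
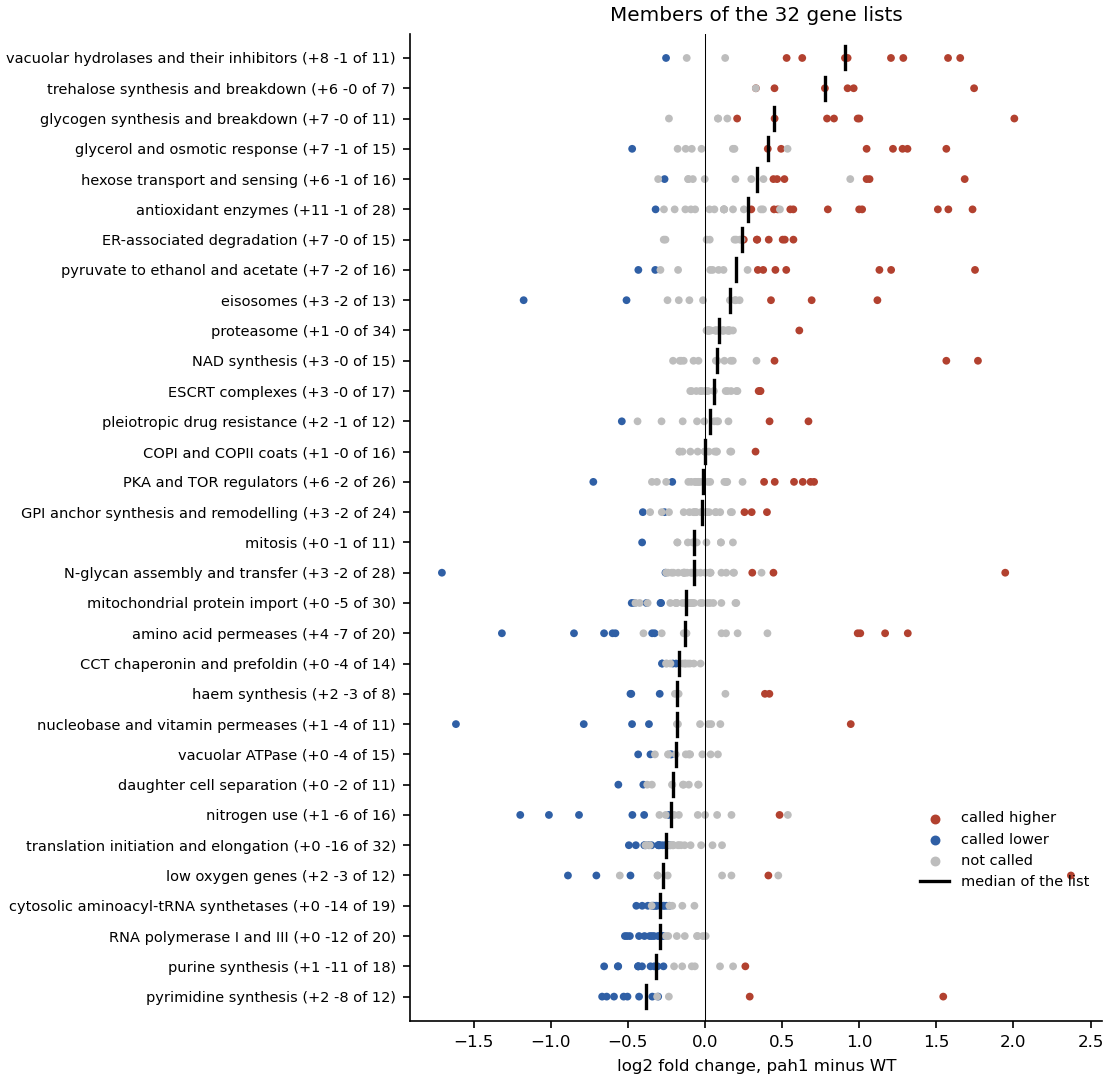
Each row is 1 of 32 gene lists, ordered by its median; points are members placed by log2 fold change, pah1 minus WT, red where called higher, blue where called lower and grey where not called, and the black bar is the median. Vacuolar hydrolases, trehalose and glycogen genes lie at the top and nucleotide synthesis, RNA polymerases and tRNA synthetases at the bottom; row labels give the members called higher (+) and lower (-) of those tested.

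Vacuolar proteases and redox enzymes also rose. Of 11 vacuolar hydrolases and inhibitors 8 were higher and 1 lower (median 0.91). Proteinase B, PRB1, had 478.1, 609.1 and 563.2 CPM in WT and 1321, 1212 and 1492 CPM in pah1Δ; its inhibitor PBI2 rose by 1.58, the alpha-mannosidase AMS1 by 1.66 and proteinase A, PEP4, by 0.92. The fall was carboxypeptidase S, CPS1 (-0.25), which was not called without WT replicate 1 or without any 1 of the pah1Δ libraries. The vacuolar ATPase, which acidifies the same organelle, went the other way, with 4 of 15 lower and 0 higher (median -0.19). Of these, VPH1 fell by 0.43, while VMA5 (-0.22) and VMA2 (-0.22) were not called without pah1Δ replicate 1 or 2, which left 2 genes called, and VMA2 was not called without WT replicate 3 or pah1Δ replicate 3 either. Of 28 antioxidant enzymes 11 were higher and 1 lower (median 0.28), 17 were higher without WT replicate 1, and 2 were lower without WT replicate 1 or pah1Δ replicate 3. The cytosolic catalase CTT1 rose by 1.74, the mitochondrial peroxiredoxin PRX1 by 1.58, GPX1 by 1.51 and AHP1 by 1.02. Of 15 glycerol and osmotic genes 7 were higher and 1 lower (median 0.41). GPD1 and GPD2, paralogs for the first step of glycerol synthesis, went opposite ways at 1.28 (overlapping YDL023C) and -0.47, and GPP2 rose by 1.31 and GUT2 by 1.22. Without WT replicate 1, 2 of these genes were lower.

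Of 16 genes from pyruvate to ethanol and acetate, 7 were higher and 2 lower (median 0.20). The minor pyruvate decarboxylase PDC6 rose by 1.75 and the mitochondrial aldehyde dehydrogenase ALD4 by 1.13, and ADH1 and ALD5 (-0.32) were the falls; 4 were higher without WT replicate 3, and 1 was lower without WT replicate 3 or any 1 of the pah1Δ libraries. Of 15 NAD synthesis genes 3 were higher and 0 lower (median 0.08): BNA2, the nicotinamidase PNC1 (1.56) and NPT1 (0.45), and without WT replicate 1 there were 6. Of 12 low oxygen genes 2 were higher and 3 lower (median -0.27); CYC7, the minor cytochrome c, rose from 0.426, 0.311 and 0.22 CPM to 0.937, 2.78 and 1.61 CPM, and HEM13 (-0.48) and AAC3 (-0.89) fell. The other rise, COX5B (0.41), was not called without WT replicate 2 or 3 or pah1Δ replicate 1 or 3. Of 8 haem synthesis genes 2 were higher and 3 lower (median -0.18), with HEM3 (-0.48) and HEM13 lower and HEM15 (0.42) higher; HEM14 (0.39) was not called without pah1Δ replicate 1 or 3.

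4 lists of protein and RNA synthesis and protein folding had falls and no rises. Of 19 cytosolic aminoacyl-tRNA synthetases and their cofactor 14 were lower (median -0.29). WRS1, for tryptophan, had 298.7, 333 and 332.7 CPM in WT and 237.2, 239.4 and 231.5 CPM in pah1Δ. Without WT replicate 3 or pah1Δ replicate 1, 8 of them were called. Of 20 subunits of RNA polymerases I and III 12 were lower (median -0.29), among them the large subunits of polymerase I, RPA190 (-0.49) and RPA135 (-0.50). Without pah1Δ replicate 1 there were 4, and without pah1Δ replicate 3 there were 6. Of 32 initiation and elongation factors 16 were lower (median -0.25), among them TEF4 (-0.49, overlapping snR38), PRT1 (-0.39) and EFT2 (-0.45, near-identical to EFT1); without pah1Δ replicate 1 there were 6, and 1 was higher without WT replicate 1. Of 14 chaperonin and prefoldin genes 4 were lower (median -0.17), led by CCT3 (-0.28). TCP1 and CCT8 lay near the threshold, and 2 genes were called without WT replicate 3 or any 1 of the pah1Δ libraries. The counts of these 4 lists were also lower with library size alone, at 5, 5, 8 and 1.

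Most genes of nucleotide synthesis on the lists were lower. Of 18 purine genes 11 were lower and 1 higher (median -0.32): the IMP dehydrogenase gene IMD3 fell by 0.65 and GUA1, GMP synthetase, by 0.57, while ADE16 rose by 0.26. Of 12 pyrimidine genes 8 were lower and 2 higher (median -0.38). URA2, which catalyses the first steps, had 1119, 1285 and 1211 CPM in WT and 760.7, 692.1 and 824.2 CPM in pah1Δ, and the salvage gene FUR1 fell by 0.59. The minor orotate phosphoribosyltransferase URA10 rose by 1.54. URA8, a CTP synthetase, rose by 0.29 but was not called without WT replicate 2 or 3 or without any 1 of the pah1Δ libraries. Of 11 nucleobase and vitamin permeases 4 were lower and 1 higher (median -0.18), where FUI1 and FCY2 (-0.79) fell and the allantoin permease DAL4 (0.95) rose. Of 20 amino acid permeases 7 were lower and 4 higher (median -0.13). BAP2 (1.01), BAP3 (1.31), AGP1 (1.17) and AGP3 (0.99) rose, while GAP1, GNP1 (-1.32, overlapping YDR509W), SAM3 (-0.58) and PUT4 (-0.60) fell. Of 16 nitrogen use genes 6 were lower and 1 higher (median -0.22), with glutamate synthase GLT1 at -0.47 and the repressor gene DAL80 at -1.01 (overlapping YKR033C); without WT replicate 1, 2 were higher.

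Of 15 genes of endoplasmic reticulum-associated degradation 7 were higher and 0 lower (median 0.24), led by HRD1 (0.57), DER1 (0.52) and DFM1 (0.50); 1 was lower without WT replicate 1. Of 28 N-glycan genes 3 were higher and 2 lower (median -0.07): ALG8 lay far from the rest, and SRT1, a cis-prenyltransferase, rose by 1.95 at a level of 0.415 to 1.02 CPM in WT. These counts were 5 and 5 without WT replicate 1. There was 1 lower when WT replicate 2 was left out, and 1 each way when WT replicate 3 or pah1Δ replicate 1 was left out. Of 24 genes of glycosylphosphatidylinositol anchor synthesis 3 were higher and 2 lower (median -0.02), with PER1 at -0.40. None of the rises was called without WT replicate 3 or pah1Δ replicate 1 (0 genes), 1 was without pah1Δ replicate 3, and 1 fall was without WT replicate 3. Of 16 COPI and COPII coat genes 1, SEC28, rose (0.33; median 0.00), 2 without pah1Δ replicate 2, and 1 was lower without WT replicate 1. Of 17 ESCRT genes 3 were higher (median 0.06), with HSE1 at 0.35 (overlapping YHL002C-A); there were 6 without WT replicate 1 and 1 without pah1Δ replicate 1. Of 13 eisosome genes 3 were higher and 2 lower (median 0.16). SUR7 and NCE102 (-0.51) fell and PUN1, a SUR7-related protein, rose from 196.1, 175.4 and 179.9 CPM to 401.8, 419.6 and 376 CPM; without WT replicate 1, 4 were lower. Of 34 proteasome genes the transcription factor gene RPN4 alone rose (0.61), every subunit lay between 0.01 and 0.18, and the median was 0.09; without WT replicate 1, 12 were higher.

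The remaining lists had few calls. Of 30 mitochondrial import genes 5 were lower and 0 higher (median -0.12), with TIM23 at -0.38 and PAM18 at -0.48. There were 8 lower without WT replicate 2 or pah1Δ replicate 2 and 3 without pah1Δ replicate 1 or 3, and 2 higher without WT replicate 1 and 1 without pah1Δ replicate 2. Of 11 mitosis genes 1 was lower (CLB1, -0.41; median -0.07); it was 4 without WT replicate 1 and 0 without any other 1 library, and 1 was higher without pah1Δ replicate 2. Of 11 daughter separation genes 2 were lower (median -0.21), SUN4 (-0.56) and AMN1 (-0.40), and 4 without WT replicate 1. Of 12 drug resistance genes 2 were higher and 1 lower (median 0.03). RTA1 rose by 0.67, PDR15 (0.42, overlapping YDR406W-A) was not called without pah1Δ replicate 1 or 3, and PDR5 (-0.54) was not called without any 1 library other than WT replicate 1, without which 4 were lower. Of 26 protein kinase A and TOR genes 6 were higher and 2 lower (median -0.01). The phosphodiesterase PDE1 (0.71) and the kinase YAK1 (0.68, overlapping IRC9) rose, and RAS1 fell by 0.72; leaving out WT replicate 1 gave 5 lower, and leaving out WT replicate 2 or 3 gave 1. The transcription factor genes MSN2 (-0.03) and MSN4 (0.14), whose element is AGGGG, were not called.

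In 5 bins of length from short to long, among genes averaging 10 CPM or more, the share called higher was 11.7%, 20.3%, 21.2%, 19.2% and 10.8%, and the share called lower was 13.6%, 13.9%, 15.6%, 15.2% and 12.6%. Without both libraries that stood apart the bins were less even for the falls, from 19% to 32.4% with the highest share in the longest bin, and the share higher in that bin was 14.2%. With the length trend removed the shares lay between 19.9% and 25.4% in every bin and both directions. The median lengths lay close together, at 1155 bases for the rises, 1236 for the falls and 1146 for all tested genes. Medians do not show that, in the full fit, rises were less frequent in the shortest and longest bins.

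**Figure D5:**
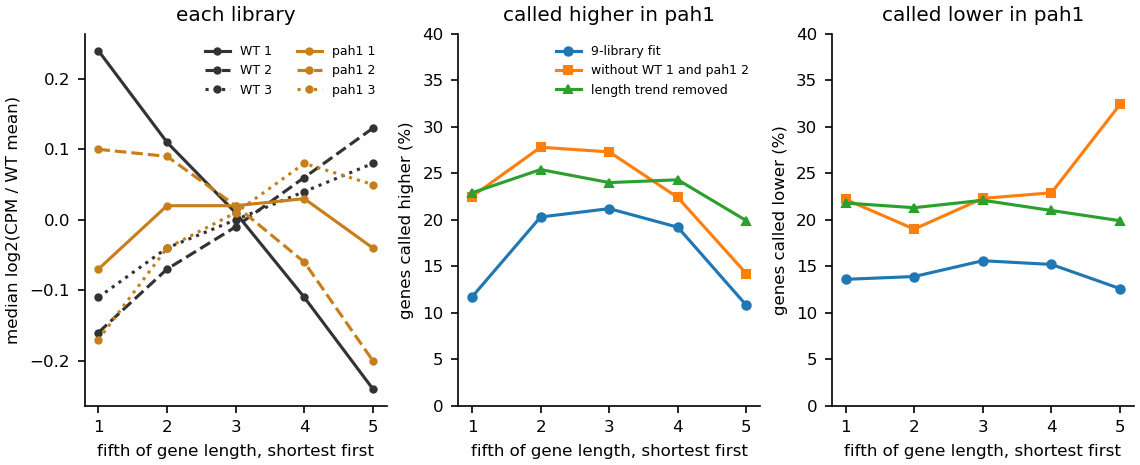
Left, the median log2 ratio of CPM to the WT mean in each library over 5 bins of gene length; middle and right, the percent of genes called higher and lower in each bin under 3 fits (all 9 libraries, without WT replicate 1 and pah1 replicate 2, and with the length trend removed). WT replicate 1 and pah1 replicate 2 slope down from 0.24 and 0.10, and the shares are most even, 19.9% to 25.4%, with the trend removed.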

How the data were processed

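Poly(A) RNA-seq of 9 libraries was used, 3 each of WT, pah1Δ and dgk1Δ. The deposited table holds raw read counts and FPKM per gene for each library; HISAT2 2.2.1, HTSeq 0.6.1 and the R64 genome are named in the submitters' processing notes, while neither strand setting nor annotation release is given in the sources used here. The FPKM values are those the authors deposited and served only as an alternative. The 6 libraries compared held 9205454 to 12616347 counts, which limits the precision for low genes. Of 7126 lines, 4 empty ones were not used.

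Counts were tested with edgeR 4.0.16 (R 4.3.3): filterByExpr, TMM scaling, a mean per genotype over all 9 libraries, glmQLFit (robust) and the contrast pah1Δ minus WT, with a call at a Benjamini-Hochberg adjusted p below 0.05, with 6 residual degrees of freedom. The procedure was tested on simulated data with a shared dispersion, changes of at least 2-fold and no length trend. That test therefore does not cover the smaller changes or the length trend of these libraries. The SE was taken as the absolute log2 change over the root of F. CPM uses the library size times the TMM factor. A gene is marked as a near-identical copy at 95% identity over 50% of its length.

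The members and the 32 lists (562 entries, 2 matched by synonym) were chosen with earlier results of these data known, and no list or term was tested. Named were PAH1, DGK1 and the neighbours of PAH1; the 30 largest rises and falls averaging 10 CPM or more, groups not overlapping; the 12 largest gains and losses in CPM; the 10 smallest adjusted p-values each way; the best members of each list and term; and the largest changes among genes without symbol or function. Any other gene named was chosen after its values were seen. Promoters came from the RefSeq R64 assembly, and 6045 genes matched it. Alternatives were other scalings, filters, libraries left out, a replicate block, removal of the length trend, limma 3.58.1 on counts and on log2(FPKM + 1) or log2(FPKM + 0.1), DESeq2 1.42.0, stricter thresholds and other motif windows. Some genes that the naming rule selects are not reported here.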

Additional observations from a re-analysis of the deposited data

How the results depend on the processing

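No call of a named gene reversed under any of the 19 alternative fits (0 of 5611 values). Of these values, 5383 kept their side of the threshold and 228 lost the call, and 251 of 293 called named genes were called in every fit. Named genes were picked largely for large changes or small adjusted p-values in these same libraries, so these counts do not stand for all called genes. The count of 1023 genes higher stayed within 1.5 times under every alternative fit (771 to 1291 with 1 library left out, the lowest without pah1Δ replicate 1 and the highest without WT replicate 1), but was 259 at a fold of at least 2 and 658 at an adjusted p under 0.01. The count of 775 genes lower was less stable. It was 480 with library size only, 484 with only the 6 libraries compared, 1316 without both WT replicate 1 and pah1Δ replicate 2, 462 with limma on log2(FPKM + 1) and 464 on log2(FPKM + 0.1). It ran from 447 (without pah1Δ replicate 1) to 1172 (without WT replicate 1) with 1 library left out, and was 25 at a fold of at least 2 and 380 at an adjusted p under 0.01. The cause was not tested. DESeq2 gave 996 higher and 1006 lower. With the replicate number as a block 865 were higher and 583 lower. Within-group deviations of same-numbered WT and pah1Δ libraries correlated at -0.394, -0.67 and 0.521. Those of WT replicate 1 and pah1Δ replicate 2, which share the length trend, correlated at 0.708. With that trend in the deviations, these values cannot tell whether same-numbered libraries shared a culture or day.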
